A study of Homo sapiens with 27 samples.

Results

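The first hours after induction of Snail1 were examined in LS174T cells, a human colorectal carcinoma line that carries a doxycycline-inducible, HA-tagged mouse Snail1 transgene (the SNAI1 line). The experiment was chosen by line and time: the arrays taken at 3 h (1 array) and 6 h (2 arrays) of doxycycline were set against the arrays of the same line at 0 h (2 arrays), which makes 5 of the 27 arrays of the series. The rest of the series follows the SNAI1 line to 96 h and covers an LS174T line with a mouse Lef1-HA transgene and a control line without a transgene for overexpression. All 3 lines are pN1-LS174T derivatives, and doxycycline was used at 0.1 µg/ml, so control arrays after 0 h are read here as treated in the same way, which the labels do not spell out. Whether each line is a clone or a pool, and which promoter drives the transgene, is not given in the sources used here. Control arrays at 0 h (replicate 1), 3 h and 6 h (replicate 2), which lie in the same array set, served as a check for drift of the cultures. The labels do not say that replicates came from separate cultures, so p-values measure the spread between these arrays, which may be technical.

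Snail1 is a zinc finger transcription factor that binds E-box sequences and, in epithelial cells, is known as a repressor of cell adhesion genes and a driver of epithelial-mesenchymal transition. In the colon, the epithelial state it acts against rests on factors such as CDX2 and on junction proteins such as E-cadherin and the claudins. Notch signalling in the same tissue separates absorptive from secretory cells through HES repressors and the secretory factor ATOH1, and EPHB receptors keep cells in their place along the crypt.

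The E-box that Snail1 prefers, CAGGTG, which reads as CACCTG on the opposite strand, was looked up in promoter sequences from RefSeq (GRCh38.p14), each running from 250 bases before to 50 bases after an annotated gene start. HES5 and CLDN3 are shown because they hold the motif and EPHB3 and MYT1 because they do not, and all 4 read below both 0 h arrays on at least 1 induced array. The sequences run 5′ to 3′ along the strand of the gene, and capitals mark the motif. HES5 lies at chr1:2530214-2530513 on the minus strand, CLDN3 at chr7:73770221-73770520 on the minus strand, EPHB3 at chr3:184561535-184561834 on the plus strand and MYT1 at chr20:64164202-64164501 on the plus strand.
HES5: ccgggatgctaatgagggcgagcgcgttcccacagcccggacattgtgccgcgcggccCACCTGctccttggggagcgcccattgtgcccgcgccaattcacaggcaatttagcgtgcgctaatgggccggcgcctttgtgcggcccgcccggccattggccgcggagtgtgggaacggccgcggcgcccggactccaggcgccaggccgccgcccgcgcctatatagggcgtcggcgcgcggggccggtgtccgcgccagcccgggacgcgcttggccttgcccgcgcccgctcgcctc
CLDN3: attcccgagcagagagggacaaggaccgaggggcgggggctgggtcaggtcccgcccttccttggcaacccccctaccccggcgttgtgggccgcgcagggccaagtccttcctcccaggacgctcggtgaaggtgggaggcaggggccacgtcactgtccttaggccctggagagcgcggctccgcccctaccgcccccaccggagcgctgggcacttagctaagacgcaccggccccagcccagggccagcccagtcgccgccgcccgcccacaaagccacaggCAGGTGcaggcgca
EPHB3: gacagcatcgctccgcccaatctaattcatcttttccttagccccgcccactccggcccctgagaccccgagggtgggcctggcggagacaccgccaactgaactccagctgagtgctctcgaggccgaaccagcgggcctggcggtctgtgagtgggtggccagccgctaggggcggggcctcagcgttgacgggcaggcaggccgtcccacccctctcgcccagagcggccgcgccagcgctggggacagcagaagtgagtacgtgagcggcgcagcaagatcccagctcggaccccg
MYT1: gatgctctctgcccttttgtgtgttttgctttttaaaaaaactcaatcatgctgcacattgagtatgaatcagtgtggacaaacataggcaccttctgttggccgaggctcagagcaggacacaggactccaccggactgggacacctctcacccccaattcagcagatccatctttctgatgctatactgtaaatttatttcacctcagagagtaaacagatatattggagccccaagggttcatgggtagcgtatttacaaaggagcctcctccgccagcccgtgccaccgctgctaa
The motif began 192 bases before the start of HES5 and, in CLDN3, at base 37 counted from the start as base 1. Of all 35116 promoters of this length in the table, 20.6% held it on either strand, and of the 10604 tested genes with a promoter in the table, 24.2% held it in any of their promoters. Among the 10 genes with the lowest early change (the mean of 3 and 6 h minus 0 h) whose induced arrays all lay below both 0 h arrays, 9 had a promoter in the table and 3 of these (HES5, OPRL1 and LFNG) held the motif. Among the 10 with the highest early change whose induced arrays all lay above both, 7 had one and 1 (PRXL2C) held it. A match says only that these letters stand in the window. CDH1, PRR15L, DLL1, FZD7 and LRRC75A are named without a sequence.

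The 5 arrays had 18243 to 19050 probes with a detection p under 0.01, and each pair of them correlated at 0.982 to 0.989 over 13332 genes, which are not independent replicates. Levels are given as normalized log2 intensities of 1 probe per gene, which rank arrays but not genes. The label of the cells was checked against 14 defining markers of colonic epithelium, and all 14 were measured. Of 26 markers of fibroblasts, endothelium, leukocytes, muscle and neuroendocrine cells, 4 to 6 were detected per array of the SNAI1 line, and 15, among them PECAM1, PTPRC, PDGFRB and CHGA, were detected on none of the 8 arrays used. The fibroblast marker FAP (8.045 to 9.194) and the leukocyte marker CD68 (6.76 to 7.24) were detected on all 8, and LYZ, of myeloid cells, on 7 (4.724 to 5.979). The summed linear level of all 26 markers was 981 and 1150 at 0 h, 966 at 3 h, and 1051 and 1048 at 6 h. Most of the 26 were undetected, so the sum includes their background readings. The transgene itself could not be read: it is a mouse sequence, and the probe of human SNAI1 did not pass the detection filter. The label of the line was therefore not checked by the transgene.

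No gene passed a 5% false discovery rate at 3 and 6 h against 0 h in limma (0 of 13332, 0%), with both times weighted equally. At an unadjusted p under 0.05, 412 genes read higher (3.09%) and 424 lower (3.18%). The smallest adjusted p was 0.554, for HES5. At 3 h alone 0 genes passed (0%), with 701 at an unadjusted p under 0.05 (5.26%). At 6 h alone 0 genes passed (0%), with 948 (7.11%). Between 6 h and 3 h, 0 genes passed (0%), with 662 at an unadjusted p under 0.05 (4.97%). With no change in any gene, about 5% would lie under that threshold. In the same fit and against the same 0 h arrays, 255 genes passed at 24 h, 2514 at 48 h and 5558 at 96 h. On simulated data for the 3 and 6 h comparison the same steps called 100 of 100 genes given a log2 change of 2 and 57 of 100 given a change of 1. The simulated arrays had independent noise with the moderated spread of each gene and the same change on all 3 induced arrays. They held no split between the 6 h arrays, so these counts do not say how many real changes of that size would pass. None of the differences at 3 and 6 h given below passed the test unless a setting is named.

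The 3 induced arrays all lay above both 0 h arrays for 1428 genes (10.7%) and all below for 1408 (10.6%). With an early change of at least 2-fold as well, 10 genes lay above (0.075%) and 27 below (0.203%). Of the 10, 8 were detected on all 3 induced arrays, and of the 27, 26 were detected on both 0 h arrays. Over all genes, the SD of the log2 difference between single arrays was 0.358 between the 0 h arrays, 0.363 between 6 h replicate 1 and 3 h, 0.411 between 6 h replicate 2 and 3 h, and 0.455 between the 6 h arrays. Against the mean of the 0 h arrays, which is narrower by construction, it was 0.326 for 3 h, 0.396 for 6 h replicate 1 and 0.353 for 6 h replicate 2.

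**Figure D1:**
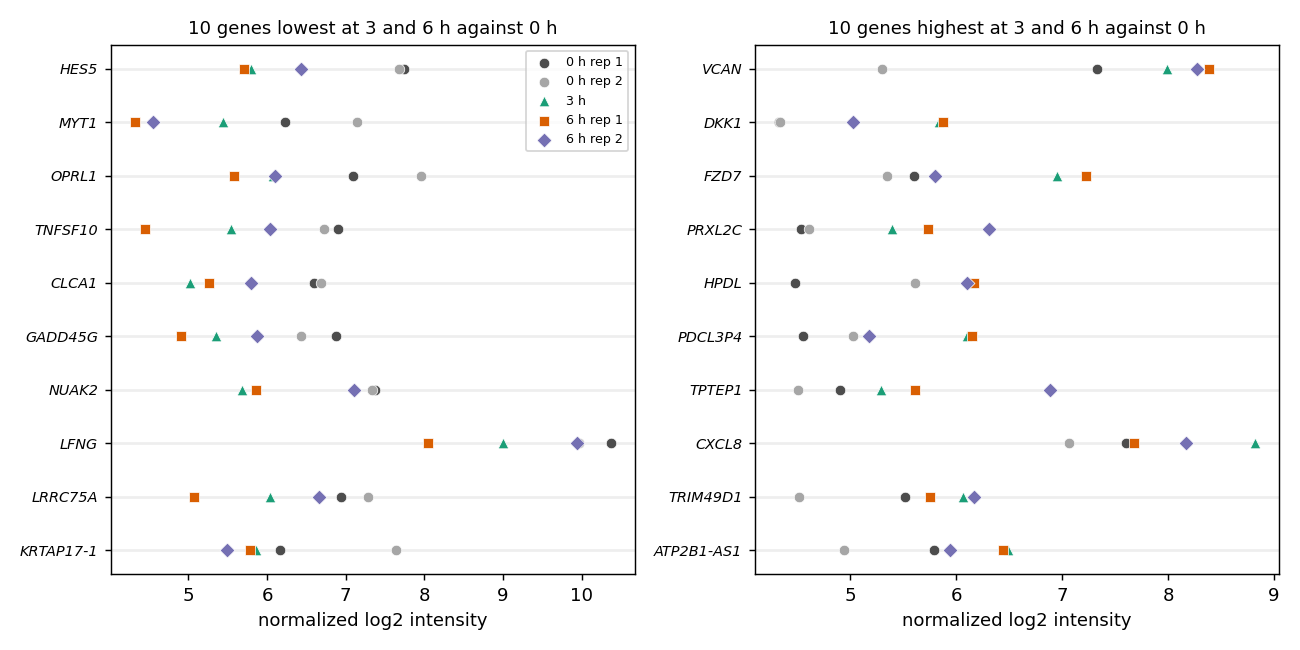
Normalized log2 intensity (x axis) of the 10 genes with the lowest and the 10 with the highest early change among genes whose 3 induced arrays lay beyond both 0 h arrays of the SNAI1 line, 1 symbol per array. HES5 read 7.74 and 7.68 at 0 h and no more than 6.43 after induction, while VCAN read 7.33 and 5.30 on the 0 h arrays.

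Genes of the Notch pathway and of secretory differentiation were among those with low early changes. HES5, a Notch target that encodes a transcriptional repressor, read 7.74 and 7.68 at 0 h, 5.79 at 3 h, and 5.71 and 6.43 at 6 h. All 3 induced arrays lay more than 1 log2 unit below both 0 h arrays, a 3.44-fold lower mean (log2 change -1.78, SE 0.212, adjusted p = 0.554 in limma). HES5 did pass in other settings: with the values the authors deposited (-0.98, adjusted p = 0.0134) and without background correction (-0.998, adjusted p = 0.013). Without 6 h replicate 2 its change was -1.96, in a fit whose spread no longer held the 6 h pair. In the control line HES5 read 8.29 at 0 h, 7.88 at 3 h and 8.03 at 6 h. The difference between the lines was -1.44 (SE 0.349) and did not pass either (adjusted p = 0.655).

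DLL1, which encodes a Notch ligand made by secretory progenitors, read 8.94 and 9.06 at 0 h, 7.78 at 3 h, and 7.68 and 8.55 at 6 h (log2 change -1.05, SE 0.288, adjusted p = 0.644). ATOH1, the transcription factor that sets secretory fate, read 7.14 and 7.42 at 0 h, 6.38 at 3 h, and 5.51 and 6.61 at 6 h (-1.06, SE 0.308, adjusted p = 0.665). For both genes the induced arrays did not overlap the 0 h arrays, and 6 h replicate 2 stood nearest to them. In the control line ATOH1 had changes of -0.19 at 3 h and -0.63 at 6 h, the latter close to its -0.67 on 6 h replicate 2. DLL1 had a change of -0.22 on each of these control arrays. LFNG, whose product is a glycosyltransferase that modifies Notch receptors, read 10.37 and 9.96 at 0 h, 9.01 at 3 h, and 8.04 and 9.94 at 6 h. Its 6 h replicate 2 value was almost that of the lower 0 h array, so the groups were barely separated. HES1, a Notch target gene that represses ATOH1 in the gut of mice, differed less, with changes of -0.57 at 3 h and -0.38 and -0.53 at 6 h. In the control line HES1 had changes of -0.65 at 3 h and -0.51 at 6 h.

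The receptor gene NOTCH1, chosen after its values were seen, read 9.93 and 9.74 at 0 h, 8.90 at 3 h, 8.16 on 6 h replicate 1 and 10.15 on 6 h replicate 2. It was low at 3 h and on 6 h replicate 1 and above both 0 h arrays on 6 h replicate 2. The control line read 10.27 at 0 h, 9.25 at 3 h and 9.68 at 6 h for NOTCH1. JAG1, which encodes another Notch ligand, read higher at 3 h and on 6 h replicate 1 (changes 1.09 and 1.16) and close to 0 h on 6 h replicate 2 (0.23). Over the list of Notch, BMP and TGF-beta genes, 4 of 28 measured members lay below both 0 h arrays (HES1, HES4, HES5 and LFNG) and 3 above, shares of 14.3% and 10.7% beside 10.6% and 10.7% of all genes.

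Secretory cell products went in both directions. CLCA1, a secreted goblet cell protein, read 6.59 and 6.69 at 0 h, 5.02 at 3 h, and 5.26 and 5.79 at 6 h (log2 change -1.37, SE 0.178, adjusted p = 0.554). No induced array reached the 0 h range. RETNLB, another goblet cell product, read 7.71 and 7.62 at 0 h, 7.16 at 3 h, and 6.73 and 7.18 at 6 h. TFF2, a trefoil factor gene, read 8.43 and 7.10 at 0 h, 8.36 at 3 h, and 8.67 and 8.36 at 6 h, with changes of 0.97 and 1.03 in the control line. Of 26 measured members of the goblet and secretory list, 7 lay below both 0 h arrays (26.9%, beside 10.6% of all genes) and 1 above (REG4; 3.85% beside 10.7%), and the median change of the list was close to 0 on every array (-0.02 at 3 h, -0.04 and -0.09 at 6 h). None of 14 measured enterocyte genes lay beyond both 0 h arrays in either direction.

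Other genes with low readings on all 3 induced arrays come from several roles. MYT1, a zinc finger transcription factor gene, read 6.23 and 7.15 at 0 h, 5.44 at 3 h, and 4.32 and 4.55 at 6 h (log2 change -1.75, SE 0.292, adjusted p = 0.554). Of the 3 induced arrays it was detected on 1. OPRL1, the nociceptin receptor gene, read 7.09 and 7.96 at 0 h, 6.08 at 3 h, and 5.58 and 6.10 at 6 h (-1.57, SE 0.305, adjusted p = 0.554). Both genes read low on each 6 h array, so they did not share the split between those arrays described below, although in the control line MYT1 (-0.51 and -0.50) and OPRL1 (-0.88 and -0.43) read lower at 3 and 6 h as well. TNFSF10, the gene of the death ligand TRAIL, read 6.8998 and 6.73 at 0 h, 5.54 at 3 h, and 4.44 and 6.04 at 6 h. At 6 h TNFSF10 was detected on 1 of the 2 arrays, so 4.44 is a background reading. GADD45G, a stress-response gene, read 6.88 and 6.43 at 0 h, 5.35 at 3 h, and 4.90 and 5.87 at 6 h. NUAK2, which encodes a kinase of the AMPK family, had changes of -1.67, -1.49 and -0.25 on the same 3 arrays, and of -0.78 and -0.52 in the control line, more than on 6 h replicate 2. In the control line TNFSF10 had changes of 0.05 and -0.38, and GADD45G of -0.16 and 0.02. LRRC75A had changes of -1.07, -2.04 and -0.45 (control line 0.29 and 0.49), and KRTAP17-1, a hair keratin-associated protein gene, -1.04, -1.11 and -1.41. For KRTAP17-1 the 0 h arrays stood apart (6.16 and 7.63), and the control line read lower at 3 and 6 h too (-0.73 and -1.11).

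The 6 h arrays disagreed on a second group of genes, which were low at 3 h and on 6 h replicate 1 and at the 0 h level on 6 h replicate 2. PRR15L, of little known function, read 10.71 and 10.74 at 0 h, 7.94 at 3 h, 7.05 on 6 h replicate 1 and 10.77 on 6 h replicate 2. EPHB3, the crypt positioning receptor, read 10.24 and 10.17 at 0 h, 8.25 at 3 h, 7.66 on 6 h replicate 1 and 10.19 on 6 h replicate 2. In both genes 3 h and 6 h replicate 1 lay far below both 0 h arrays (changes of -2.78 and -3.67 for PRR15L and -1.96 and -2.54 for EPHB3), and 6 h replicate 2 stood at the 0 h level. The same order held for GRB7, an adaptor protein gene, with 7.67 and 7.45 at 0 h, 5.56 at 3 h, and 5.08 and 7.69 at 6 h. It also held for ZSCAN16, a zinc finger gene, with changes of -1.55 at 3 h, -2.71 on 6 h replicate 1 and 0.18 on replicate 2. ELF3, an epithelial transcription factor gene, had changes of -1.27, -1.41 and -0.05 on these arrays. C2orf15 had changes of -0.79, -2.26 and 0.47. With all 3 arrays in the fit, none of them passed (PRR15L -2.30, SE 0.944, adjusted p = 0.786). In the control line, EPHB3 (-0.77 at 3 h and -0.31 at 6 h) and GRB7 (-0.76 and -0.22) read lower too. ZSCAN16 was near its 0 h level there (-0.01 and -0.03). PRR15L (0.65 and 0.67), ELF3 (0.93 and 0.715) and C2orf15 (0.42 and 0.25) read higher in the control line.

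**Figure D2:**
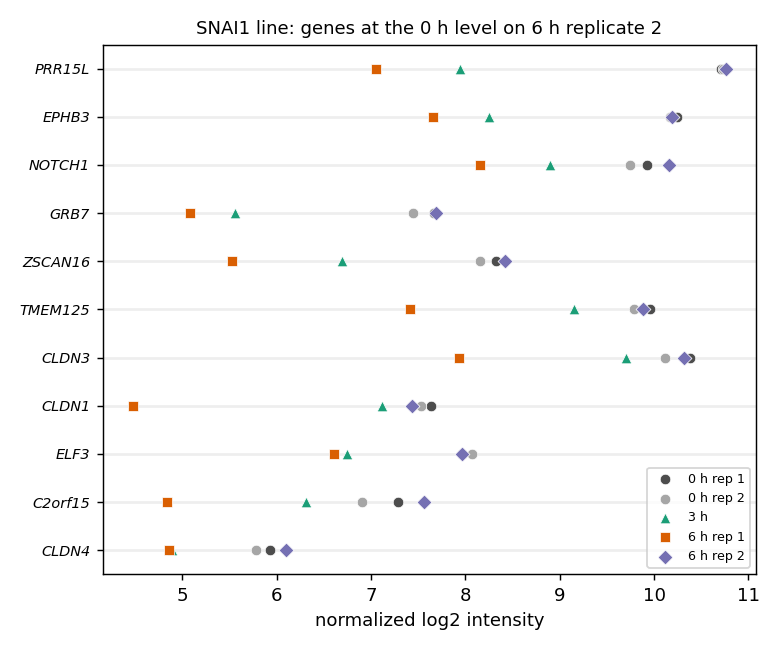
Normalized log2 intensity (x axis) on the 5 arrays of the SNAI1 line for genes that differed between the 6 h arrays, 1 symbol per array. On 6 h replicate 2 PRR15L read 10.77 and EPHB3 10.19, at their 0 h levels, and on 6 h replicate 1 they read 7.05 and 7.66.

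Several claudin and junction genes followed this order, with most of the difference on 6 h replicate 1. CLDN3, a tight junction claudin, read 10.38 and 10.12 at 0 h, 9.70 at 3 h, 7.93 on 6 h replicate 1 and 10.31 on replicate 2. CLDN1, another claudin, read 7.63 and 7.52 at 0 h, 7.12 at 3 h, 4.47 on 6 h replicate 1 and 7.43 on replicate 2. At 6 h CLDN1 was detected on 1 of the 2 arrays, so 4.47 is a background reading. TMEM125, a membrane protein gene, read 9.95 and 9.79 at 0 h, 9.15 at 3 h, 7.42 on 6 h replicate 1 and 9.89 on replicate 2. The 3 h array thus lay between the 0 h arrays and 6 h replicate 1 in all 3 genes. CGN, which encodes the tight junction protein cingulin, was low on both 6 h arrays: it read 7.21 and 7.09 at 0 h, 6.95 at 3 h, and 5.08 and 6.11 at 6 h (log2 change -0.88, SE 0.322, adjusted p = 0.735). CLDN4 had changes of -0.97 at 3 h, -0.9994 on 6 h replicate 1 and 0.25 on replicate 2, and CLDN7 of -0.34, -0.61 and 0.04. CRB3, a polarity gene, had changes of -0.26, -0.78 and 0.04.

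CDH1, the gene of E-cadherin and a textbook Snail1 target, read 11.44 and 11.53 at 0 h, 11.45 at 3 h, 11.03 on 6 h replicate 1 and 11.43 on replicate 2. Its 3 h value lay within the 0 h range, and the early change was -0.15 (SE 0.153, adjusted p = 0.938), with -0.44 at 24 h from the same 0 h arrays. ESRP1, an epithelial splicing factor gene, had changes of 0.25, -1.11 and -0.19. Over the junction and polarity list, 6 of 25 measured members lay below both 0 h arrays on every induced array (24%, beside 10.6% of all genes) and 1 above. The median change of the list was -0.04 at 3 h, -0.54 on 6 h replicate 1 and -0.07 on replicate 2, beside 0.00, 0.02 and -0.02 over all genes. Without 6 h replicate 2, 10 of 25 lay below (40%) beside 19.2% of all genes, and without 6 h replicate 1, 6 of 25 (24%) beside 16%. No member of this or any other list passed the test in either direction.

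Dropping either 6 h array takes the difference between these 2 arrays out of the spread that limma uses. Genes on which they disagree can pass for that reason, so calls made in this way were not taken as support for a change. Leaving out 6 h replicate 2 changed the calls. Without it, 13 genes passed at 3 and 6 h (0.0975%) and 22 at 6 h (0.165%), and 3 genes passed at 3 h (0.0225%). The 13 were PRR15L (-3.23, adjusted p = 0.0246), HES5, CLDN1 (-1.78, adjusted p = 0.0246), TMEM125 (-1.59, adjusted p = 0.0309), CLCA1 (-1.50, adjusted p = 0.035), ZSCAN16 (-2.13, adjusted p = 0.0356), ILDR1, TMPRSS2, MISP3 and SPATA2L on the low side and CYP1A1, CYP1B1 and RGS2 on the high side. ILDR1 encodes a tricellular junction protein and TMPRSS2 a membrane serine protease of epithelial cells. RGS2, which encodes a regulator of G protein signalling, read 8.04 and 8.22 at 0 h, 9.51 at 3 h, and 9.75 and 7.74 at 6 h. Without 6 h replicate 1 instead, 0 genes passed at 3 and 6 h (0%), 1 at 6 h (0.0075%) and 3 at 3 h (0.0225%). That 1 gene was KLF9, a Krüppel-like factor gene, which read 9.54 and 9.63 at 0 h, 9.55 at 3 h, 9.22 on 6 h replicate 1 and 6.896 on replicate 2.

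**Figure D3:**
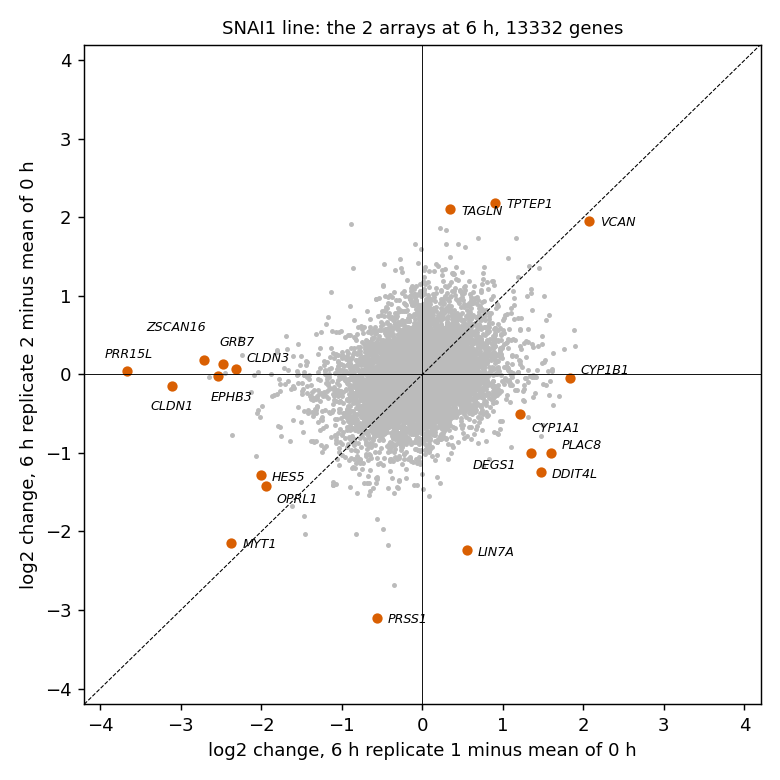
Log2 change from the mean of the 0 h arrays on 6 h replicate 1 (x axis) and on 6 h replicate 2 (y axis), 1 point per gene over 13332 genes, with named genes in orange and the line of equal change dashed. HES5, MYT1, OPRL1 and VCAN lie in the same direction on both arrays, and PRR15L (-3.67 and 0.04) and PRSS1 (-0.56 and -3.10) lie near 1 axis each.

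The 6 h arrays also differed in the other direction. LIN7A, a polarity scaffold gene, read 7.49 and 7.39 at 0 h, 7.49 at 3 h, 7.99 on 6 h replicate 1 and 5.20 on replicate 2. PRSS1, the gene of cationic trypsinogen, read 8.23 and 8.75 at 0 h, 8.05 at 3 h, 7.93 on 6 h replicate 1 and 5.39 on replicate 2. In both genes 6 h replicate 2 stood far below the other 4 arrays. DDIT4L had changes of 0.62, 1.47 and -1.24, PLAC8 of 0.90, 1.60 and -0.999, and DEGS1 of 0.60, 1.35 and -0.998 on the same arrays. Detected probes numbered 18536 on 6 h replicate 1 and 18243 on replicate 2, and the cause of the split was not tested.

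Transcription factors of the epithelial state read lower on all 3 induced arrays in part of their list. CDX2, the homeobox factor of intestinal identity, read 11.72 and 11.61 at 0 h, 10.67 at 3 h, and 10.38 and 11.41 at 6 h (log2 change -0.88, SE 0.284, adjusted p = 0.677). EHF, an ETS factor gene of epithelia, read 9.15 and 9.18 at 0 h, 8.42 at 3 h, and 7.89 and 8.45 at 6 h (-0.87, SE 0.187, adjusted p = 0.586). In EHF all 3 induced arrays stood well below 0 h, whereas in CDX2 replicate 2 at 6 h stood close to it. CDX1, the second caudal homeobox factor, had changes of -0.21, -0.91 and -0.13. Of the 23 measured epithelial regulators and keratins, 8 lay below both 0 h arrays (CDX1, CDX2, FOXA2, KLF4, EHF, GRHL2, OVOL2 and ATOH1; 34.8% beside 10.6% of all genes) and 0 above. The median of the list was -0.21 at 3 h, -0.46 on 6 h replicate 1 and -0.10 on replicate 2, and 0.06 and 0.05 in the control line. Without 6 h replicate 2, 13 of 23 lay below both 0 h arrays (56.5%) beside 19.2% of all genes, and without 6 h replicate 1, 8 of 23 (34.8%) beside 16% of all genes.

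Matrix, Wnt pathway and less studied genes were among those with high early changes. VCAN, the gene of the matrix proteoglycan versican, read 7.33 and 5.30 at 0 h, 7.99 at 3 h, and 8.38 and 8.27 at 6 h (log2 change 1.84, SE 0.529, adjusted p = 0.665). The induced arrays lay close together above both 0 h arrays, but the 0 h arrays were farther apart from each other than the size of the change. In the control line VCAN read 6.10, 6.39 and 5.74. DKK1, which encodes a secreted Wnt antagonist, was not well above background on either 0 h array (4.33 and 4.34) and read 5.84 at 3 h and 5.88 and 5.02 at 6 h. Its induced mean was at least 2.11-fold above 0 h (adjusted p = 0.554). A second DKK1 probe was detected on no array.

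PRXL2C, of the peroxiredoxin-like family, was not detected at 0 h (4.54 and 4.61) and read 5.40 at 3 h and 5.74 and 6.31 at 6 h, at least 2.19-fold higher (adjusted p = 0.554). FZD7, a Wnt receptor gene, read 5.60 and 5.35 at 0 h, 6.95 at 3 h, and 7.23 and 5.80 at 6 h. A second FZD7 probe gave 6.88 and 5.69 at 0 h, 5.36 at 3 h, and 6.87 and 6.30 at 6 h, so the probes disagreed and the direction for FZD7 is not settled. HPDL, a mitochondrial dioxygenase-like gene, read 4.48 and 5.61 at 0 h and 6.15, 6.17 and 6.10 after induction. TPTEP1, a pseudogene transcript, was highest on 6 h replicate 2 (change 2.19). PDCL3P4, also a pseudogene and undetected at 0 h, had an early mean at least 2.13-fold higher, with most of it at 3 h and on 6 h replicate 1. TRIM49D1 and the antisense transcript ATP2B1-AS1 had early changes of 0.99 and 0.97. CXCL8, the gene of the chemokine interleukin-8, read 7.60 and 7.07 at 0 h, 8.82 at 3 h, and 7.68 and 8.16 at 6 h. A second CXCL8 probe gave 6.89 and 6.24 at 0 h, 7.42 at 3 h, and 6.51 and 7.27 at 6 h. On that probe 6 h replicate 1 lay within the 0 h range. In the control line CXCL8 stood 1.99 higher at 3 h and 1.62 higher at 6 h, and the difference between the lines did not pass (-0.77, SE 0.42, adjusted p = 0.801).

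Of 13 measured mesenchymal genes, 4 lay above both 0 h arrays (VCAN, TAGLN, MSN and CDH11, 30.8% beside 10.7% of all genes) and 0 below. The list medians were 0.14 at 3 h, 0.35 on 6 h replicate 1 and 0.07 on replicate 2. TAGLN was detected on no 0 h array and on 1 of the 3 induced arrays, so its place in the count rests on low signal. MSN, which encodes the membrane-cytoskeleton linker moesin, read 8.004 and 8.10 at 0 h, 8.39 at 3 h, and 8.73 and 8.39 at 6 h, and its changes in the control line were 0.52 and 0.26. CDH11, a mesenchymal cadherin gene, had changes of 0.14, 0.78 and 0.61. VIM, the gene of the intermediate filament vimentin, read 7.96 and 8.06 at 0 h, 7.95 at 3 h, and 8.07 and 8.08 at 6 h. All 5 arrays lay close together, and the early change of VIM was 0.00 (SE 0.197). SNAI2, the gene of the related factor Slug, was detected on no 0 h array and on 1 of the 3 induced arrays (6 h replicate 1, 5.69).

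**Figure D4:**
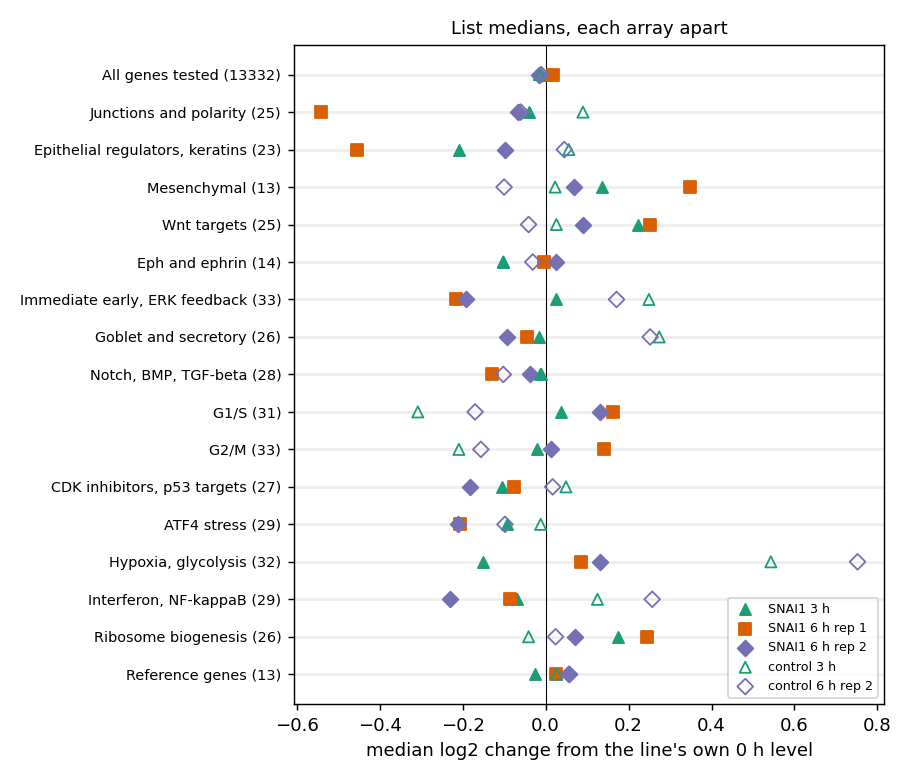
Median log2 change from the line's own 0 h level (x axis) over the measured members of each gene list (number in parentheses), with filled symbols for arrays of the SNAI1 line and open symbols for the control line. Junction genes had a median of -0.54 on 6 h replicate 1 and between -0.07 and -0.04 on the other induced arrays, and hypoxia genes stood at 0.54 and 0.75 in the control line.

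Wnt target genes had list medians of 0.22 at 3 h, 0.25 on 6 h replicate 1 and 0.09 on replicate 2, with 5 of 25 above both 0 h arrays (DKK1, CD44, BMP4, CCN1 and TRIB2; 20% beside 10.7% of all genes) and 2 below (SOX9 and WIF1; 8% beside 10.6%). The same list differed by a median of 0.29 between the 0 h arrays themselves. LEF1 is the gene of the transcription factor through which beta-catenin acts. It read 6.76 and 5.92 at 0 h, 6.70 at 3 h, and 7.20 and 6.43 at 6 h. On this probe only 6 h replicate 1 lay above both 0 h arrays. A second LEF1 probe gave 6.39 and 5.99 at 0 h, 7.04 at 3 h, and 7.20 and 5.94 at 6 h. On that probe 3 h lay above both 0 h arrays as well, and 6 h replicate 2 lay below both. At 24 h LEF1 stood 3.02 above the same 0 h arrays (adjusted p = 0.02). AXIN2, the negative feedback gene of the pathway, had changes of -0.15, -0.16 and 0.13, and MYC of 0.22, -0.17 and -0.17. BAMBI, which encodes a pseudoreceptor for TGF-beta family ligands, read 9.28 and 8.71 at 0 h, 10.06 at 3 h, and 9.72 and 8.78 at 6 h. Of 14 measured Eph and ephrin genes, 4 lay below both 0 h arrays and 1 above (28.6% and 7.14%, beside 10.6% and 10.7% of all genes). Of the 14, 3 were detected on none of the 5 arrays, among them EFNA3, which was counted below. EPHA1 and EFNA1, a receptor and a ligand gene, were lower on all 3 arrays by the probes used. EPHA1 had changes of -0.45, -1.02 and -0.34, and EFNA1 of -0.64, -0.43 and -0.24. On a second EFNA1 probe 6 h replicate 2 (7.40) lay within the 0 h range (7.55 and 7.19).

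Among the genes highest at 3 h, CYP1A1 and CYP1B1 were also highest at 3 h in the control line. CYP1A1, a cytochrome P450 gene driven by the aryl hydrocarbon receptor, was not detected at 0 h (4.97 and 4.63) and read 8.28 at 3 h, 6.02 on 6 h replicate 1 and 4.30 on replicate 2. CYP1B1, a target of the same receptor, read 6.37 and 6.27 at 0 h, 9.53 at 3 h, 8.15 on 6 h replicate 1 and 6.28 on replicate 2. Both were highest at 3 h and at or below the 0 h level on 6 h replicate 2. Over both times the mean of CYP1A1 was at least 3.77-fold above 0 h (adjusted p = 0.586 in limma). The 3 h array carried this value, and without that array the log2 change was 0.356. With the values the authors deposited, the 3 h change was 1.78 (adjusted p = 0.0234). In the control line CYP1A1 read 4.89 at 0 h, 7.47 at 3 h and 6.03 at 6 h. There CYP1B1 stood 2.48 above 0 h at 3 h and 1.02 at 6 h. The difference between the lines was 0.30 for CYP1B1 (SE 0.818). THBS1, the gene of thrombospondin-1, was highest at 3 h (change 2.06, and 0.85 in the control line). ZNF793 was not detected at 0 h (4.34 on both arrays) or at 6 h (4.54 and 4.27) and read 6.33 at 3 h, whereas the control line read 4.39 at 0 h, 4.40 at 3 h and 4.64 at 6 h. SGK1, a serum- and glucocorticoid-regulated kinase gene, read 5.50 and 5.91 at 0 h, 7.54 at 3 h, and 7.22 and 5.87 at 6 h, with changes of 0.72 and 0.22 in the control line. NIBAN1 had the lowest adjusted p at 6 h alone (0.153): it was not detected at 0 h (4.45 and 4.50) or at 3 h (4.44) and read 5.93 and 5.84 at 6 h.

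Of 33 measured immediate early genes and feedback genes of ERK signalling, 9 lay below both 0 h arrays (27.3%, beside 10.6% of all genes) and 4 above (12.1%, beside 10.7%). FOS, of the AP-1 factors, read 5.57 and 6.10 at 0 h, 4.72 at 3 h, and 5.42 and 4.94 at 6 h (log2 change -0.88, SE 0.233, adjusted p = 0.621). EGR1, a growth factor-induced zinc finger gene, read 7.38 and 7.66 at 0 h, 6.73 at 3 h, and 7.30 and 6.66 at 6 h. Both lay below 0 h on every induced array, while in the control line FOS stood 1.26 and 1.75 and EGR1 0.71 and 0.85 above its 0 h array. The difference between the lines did not pass for FOS (-2.39, SE 0.384, adjusted p = 0.588) or EGR1 (-1.44, SE 0.36, adjusted p = 0.655). HBEGF, an EGF receptor ligand gene, had changes of -0.93, -0.61 and -0.19, and KLF2, a Krüppel-like factor gene, of -0.63, -0.94 and -0.45. DUSP6, an ERK phosphatase gene, had changes of -0.50, -0.19 and -0.73.

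Medians of the growth and stress lists were small. Of 26 measured ribosome biogenesis genes, 10 lay above both 0 h arrays (38.5% beside 10.7% of all genes) and 0 below, with medians of 0.18, 0.24 and 0.07. Without 6 h replicate 2, 18 of 26 lay above (69.2%) beside 21.8% of all genes, and without 6 h replicate 1, 11 of 26 (42.3%) beside 15.8%. PES1, which acts in maturation of the large ribosomal subunit, read 8.89 and 8.61 at 0 h, 9.15 at 3 h, and 9.20 and 8.99 at 6 h. Of 31 G1/S genes, 9 lay above (29% beside 10.7% of all genes) and 0 below (beside 10.6%). Their medians were 0.04, 0.16 and 0.13, beside -0.31 and -0.17 in the control line. CCNE1, the gene of cyclin E1, had changes of 0.49, 0.55 and 0.11, and CDC25A, a phosphatase gene of the G1/S transition, of 0.34, 0.51 and 0.10. Of 33 G2/M genes, 5 lay above (15.2% beside 10.7% of all genes) and 0 below (beside 10.6%).

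Of 27 CDK inhibitor and p53 target genes, 9 lay below both 0 h arrays (33.3%) and 1 above (3.7%). For this list and those that follow, 10.6% of all genes lay below and 10.7% above. CDKN1A, the gene of the CDK inhibitor p21, read 11.42 and 11.15 at 0 h, 10.91 at 3 h, and 11.05 and 10.57 at 6 h (log2 change -0.42, SE 0.181, adjusted p = 0.802). The p53 target gene RPRM, detected on both 0 h arrays and on no induced array, was at least 1.86-fold lower early, but the control line read lower too (-0.87 and -1.04). Of 29 ATF4 stress response genes, 10 lay below (34.5%) and 1 above (3.45%), with medians of -0.09, -0.21 and -0.21. STC2, a secreted glycoprotein gene of this response, read 9.92 and 9.85 at 0 h, 9.16 at 3 h, and 9.24 and 9.67 at 6 h. CHAC1, a glutathione-degrading enzyme gene, had changes of -0.43, -1.14 and -0.49. The heat shock list had 4 of 16 below (25%) and 0 above, and BAG3, a co-chaperone gene, had changes of -0.26, -0.41 and -0.51 beside -0.37 and -0.35 in the control line. The cholesterol list had 5 of 20 below (25%) and 1 above (5%), with medians of 0.01, -0.11 and -0.11. The interferon and NF-kappaB list had 4 of 29 below (13.8%) and 3 above (10.3%), both near the shares of all genes. Among reference genes, 2 of 13 lay above (GAPDH and PPIA; 15.4%) and 0 below, with medians between -0.03 and 0.06. Of 14 colonic epithelium markers, 3 lay below (21.4%) and 0 above.

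The control line did not stay at its 0 h level either. In limma 0 genes passed there (0%), with 1037 at an unadjusted p under 0.05 (7.78%). Both control arrays lay at least 2-fold above the 0 h array for 46 genes (0.345%) and below for 36 (0.27%). NDRG1, a hypoxia-responsive gene, in the control line read 8.30 at 0 h, 10.71 at 3 h and 10.88 at 6 h, against 8.64 and 8.43 at 0 h, 7.90 at 3 h, and 8.62 and 8.74 at 6 h in the SNAI1 line. The difference between the lines was -2.74 for NDRG1 (SE 0.25, adjusted p = 0.145), the lowest adjusted p of that comparison. In it 0 genes passed (0%) and 875 (6.56%) had an unadjusted p under 0.05. NDRG1 did pass in 5 other settings that kept all arrays: with the deposited values (-2.39, adjusted p = 0.000274), without background correction (-2.40, adjusted p = 0.00028), with an offset of 50 (-2.59, adjusted p = 0.00711), with trend and robust moderation (-2.74, adjusted p = 0.00012) and over genes detected on all 5 arrays (-2.74, adjusted p = 0.0391). The difference for ANKRD37 passed in the first 4 of these (adjusted p = 0.0011 to 0.03). ANKRD37 (2.76 and 2.91) and STC1 (2.07 and 2.35), both hypoxia-inducible, stood higher in the control line too. The hypoxia and glycolysis list had medians of 0.54 and 0.75 in the control line and of -0.15, 0.09 and 0.13 in the SNAI1 line, where 3 of 32 lay above and 3 below (9.38% each). OLFM4, a stem cell marker gene of the crypt, had changes of -2.02 and -1.93 in the control line, and in the SNAI1 line it read 7.39 and 9.01 at 0 h, 7.06 at 3 h, and 6.70 and 7.60 at 6 h. The control comparison rests on 1 array at each time, so its part in the differences between the lines was not tested.

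**Figure D5:**
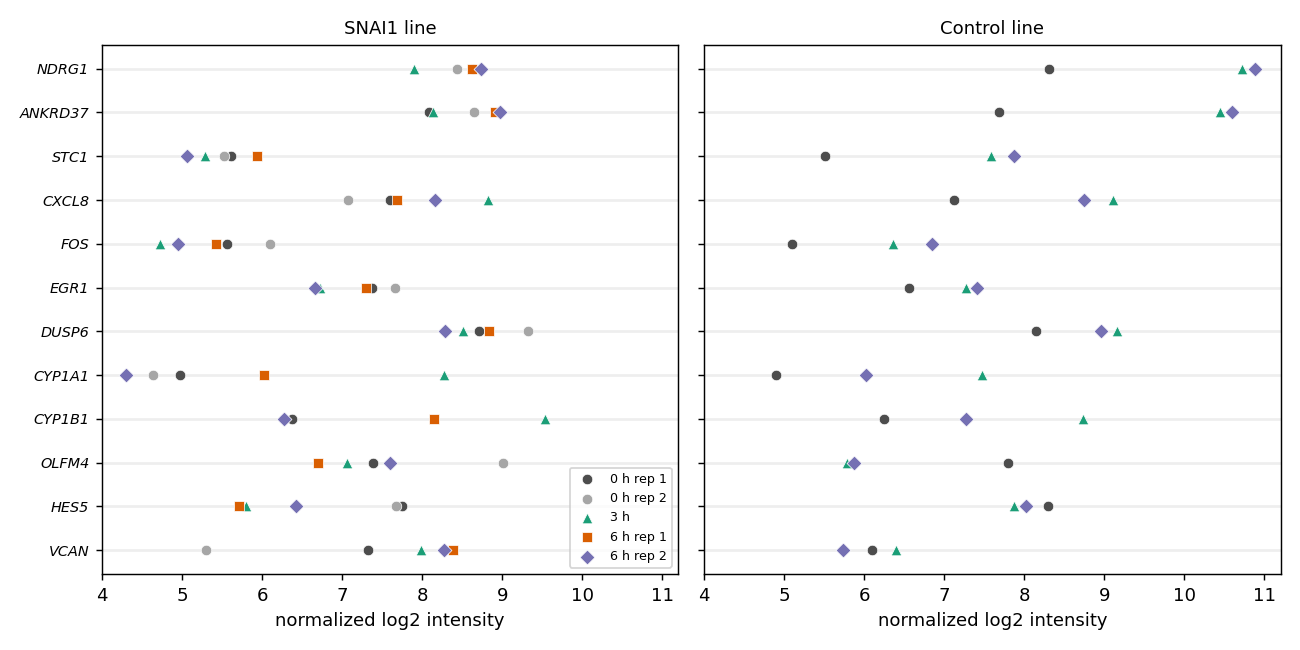
Normalized log2 intensity (x axis) of 12 genes on the 5 arrays of the SNAI1 line (left) and on the 3 arrays of the control line in the same array set (right). NDRG1 stood at 10.71 and 10.88 in the control line after 0 h and at 7.90 to 8.74 in the SNAI1 line, whereas CYP1A1 and CYP1B1 were highest at 3 h in both.

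The low readings of the first hours were set beside 24 h (1 array), which shares the 0 h arrays. Of the 10 genes with the lowest early change named above, 4 fell by the test at 24 h and 6 did not pass. Over all 13332 genes, 170 fell by the test at 24 h. The 10 were picked for 0 h readings above all induced arrays, and the 24 h change uses the same 0 h arrays. Part of their fall at 24 h is therefore built in. The other genes given at 24 h share these 0 h arrays and were picked in part by their early values. The same limit holds for them. HES5 stood at -3.18 at 24 h (adjusted p = 0.00703), CLCA1 at -1.37 (adjusted p = 0.0425), MYT1 at -2.22 (adjusted p = 0.0431) and OPRL1 at -2.29 (adjusted p = 0.0433). The other 6 (TNFSF10, GADD45G, NUAK2, LFNG, LRRC75A and KRTAP17-1) stood at -0.82 to -2.28, with adjusted p from 0.0989 to 0.480. Among other low genes, ATOH1 (-2.71, adjusted p = 0.0267), DLL1 (-2.18, adjusted p = 0.0431), EHF (-1.39, adjusted p = 0.0443) and RETNLB (-2.33, adjusted p = 0.00796) fell at 24 h, and CDX2 did not pass (-1.69, adjusted p = 0.0773). Of the genes at their 0 h level on 6 h replicate 2, some had lower values at 24 h than at 3 h and some did not, and none of those given here passed. PRR15L stood at -4.25 (adjusted p = 0.146), EPHB3 at -2.65 (adjusted p = 0.195), CLDN3 at -4.61 (adjusted p = 0.05004) and TMEM125 at -3.61 (adjusted p = 0.0849), all below their 3 h values. GRB7 at -0.92 (adjusted p = 0.67) and ELF3 at -0.95 (adjusted p = 0.364) stood nearer to 0 h than they did at 3 h. VCAN stood at 3.84 at 24 h (adjusted p = 0.0466), and CYP1B1 was back at 0.06. GADD45G, low in the first hours, stood at 2.45 at 96 h.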

How the data were processed

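Biotinylated cRNA was hybridised to Illumina bead arrays, per the labels' protocols. The authors deposited non-normalized probe intensities on a log2 scale (read from the values) and, beside each, a detection p-value. They also deposited a second table of log2 values that are quantile normalized over all 27 arrays. The scanner software is not given in these sources, nor is any earlier background step. The 18 arrays with continuous detection p were background corrected and quantile normalized with neqc (offset 16, limma 3.58.1, R 4.3.3). A probe had to reach a detection p under 0.01 on 2 or more arrays, and each of the 13332 genes is represented by its brightest probe on average. Gene names come from the platform annotation (30113 of 47323 probes map to 1 gene, 8 to several, 17202 to none).

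limma was fitted with 1 mean per line and time (4 residual and 3.07 prior degrees of freedom), and p-values were adjusted over all genes by Benjamini and Hochberg's method. Times with 1 array take their spread from groups with 2. "Early" is the mean of 3 h and 6 h. Where 1 side was undetected on all its arrays, "at least" marks a ratio of means. In it, readings of that side below the lowest detected value were raised to that value. It is not a confidence bound. The number of arrays limits the precision. In the simulated data 7 of 13132 unchanged genes were called.

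The 5 arrays, the 21 gene lists and the rules below were chosen with earlier results of these data known. Named genes are the 10 highest and lowest early changes beyond both 0 h arrays, the 5 highest and lowest at 3 h, between the 6 h arrays and in the control line, a set of epithelial, Wnt and growth genes, and up to 4 members of each list with the largest early change, of which those the text needs are printed. Others named were chosen after their values were seen. Alternatives changed the values, background correction, offset, probe filter, probe choice, arrays, weighting and block. Leaving arrays out of the counts beyond 0 h was chosen after seeing the data. Same-numbered replicates did not deviate together (r = -0.012 between 0 h and 6 h over genes), so the numbers were not taken as pairs.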

Additional observations from a re-analysis of the deposited data

How the results depend on the processing

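With the values the authors deposited, 1 gene passed at 3 and 6 h (HES5), 3 at 3 h (CYP1A1, CYP1B1 and HES5), 1 between 6 h and 3 h (CYP1A1), 19 in the control line and 8 in the difference between the lines. Without background correction these counts were 1, 3, 1, 20 and 8. The control line and the difference had 7 and 2 calls with an offset of 50, 18 and 7 with trend and robust moderation, and 2 and 1 over genes detected on all 5 arrays, and the control line had 1 with all probes of a gene averaged. The cause was not tested. All other settings that kept every array gave 0 in each comparison, as in the values reported. Leaving out 1 array in turn gave 0 to 13 calls at 3 and 6 h, 0 to 3 at 3 h, 0 to 22 at 6 h and 0 to 2 between 6 h and 3 h, the highest without 6 h replicate 2 except the last, which came without 6 h replicate 1. No control value could be had without its 0 h array. Genes beyond both 0 h arrays by at least 2-fold numbered 21 to 53 above and 27 to 105 below with 1 array left out, which by construction asks less of the rest. With the replicate number as a block 0 genes passed in every comparison, with the lowest adjusted p of 0.642 at 3 and 6 h, and VIM turned to -0.046. No pairing of replicates was assumed.

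Of 114 genes named, 12 turned sign in some setting. FZD7 was -0.309 with the 5 arrays alone and MYC -0.037 with each early array weighted equally. With 1 array left out the ranges crossed 0 for VIM (-0.045 to 0.066), MYC (-0.166 to 0.038), LEF1 (-0.002 to 0.836), NDRG1 (-0.348 to 0.145), ANKRD37 (-0.112 to 0.57), STC1 (-0.394 to 0.04), ESRP1 (-0.646 to 0.034), DDIT4L (-0.313 to 1.05), PLAC8 (-0.047 to 1.25), DEGS1 (-0.198 to 0.974) and LIN7A (-1.10 to 0.302). Low signal limits genes that were undetected on 1 side of the comparison, among them DKK1, PRXL2C, PDCL3P4, CYP1A1, ZNF793, TAGLN, NIBAN1 and RPRM.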
